A study of Mus musculus with 33 samples.

Results

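The genes described here are 10 immediate early and AP-1 genes, namely Fos, Fosb, Jun, Junb, Atf3, Egr1, Nr4a1, Ier2, Dusp1 and Zfp36, taken by symbol from a table of 48795 genes. All 10 were found, and all 10 were among the 15846 genes with enough signal to be tested (at least 0.5 FPKM, that is fragments scaled to gene length and library size, in at least 5 tumours). RNA sequencing covered 33 tumours that grew under the skin of 20 male FVB mice after injection of Myc-CaP, a cell line from a prostate tumour of a MYC transgenic mouse. There were 5 mice in each of 4 groups. ESK981, a compound taken by mouth that inhibits several kinases, PIKfyve among them, was given at 15 mg/kg on 5 days a week (8 tumours). The combination group received the same ESK981 regimen with an antibody against the checkpoint receptor PD-1 at 200 µg per mouse, injected into the peritoneum 3 times a week (8 tumours). The anti-PD-1 group received the antibody (7 tumours), and the vehicle group was the control (10 tumours). The protocol names an isotype control antibody as the alternative to anti-PD-1 but does not say which mice were injected with it. Treatment started at a tumour volume of 50 mm3 and lasted 3 weeks in every group. Tumours are named by a mouse number within the group and by flank (L or R), and 13 of the mice gave a tumour from each flank.

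Immediate early genes are transcribed within minutes of a growth factor, cytokine or stress signal, because the proteins that switch them on, such as SRF with its ternary complex partners and CREB, are already on their promoters and need only be phosphorylated. Several of their products are the FOS, JUN and ATF subunits that pair through leucine zippers to form AP-1, a transcription factor of proliferation, invasion and inflammation genes. Others, such as DUSP1 and tristetraprolin, switch the signal off again, DUSP1 by acting on MAP kinases and tristetraprolin by acting on short-lived messenger RNAs.

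Depth differed between the groups, at 18081362 to 32439036 fragments per ESK981 tumour, 17831984 to 24812278 per combination tumour, 11317285 to 24191126 per anti-PD-1 tumour and 9901152 to 18353798 per vehicle tumour. Among the 8 members whose fragments could be recovered, the number behind a tumour's value ran from 23 (Fosb in combination 1R) to 2534 (Jun), so Fosb is the least precise. All 23 treated tumours and vehicle 5R were sequenced on the same flow cell, and the other 9 vehicle tumours on a flow cell of their own. Of the epithelial markers reported here, Krt8 was expressed, with a median of 17.97 FPKM over all tumours, whereas Krt18, Cdh1 and Epcam had medians of 0.125, 0.244 and 0 FPKM. In bulk tissue, fewer cells of a type and less RNA per cell cannot be told apart.

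Promoters of the 4 genes that were called lower in ESK981 tumours are shown first, because they are the stretches next to the RefSeq start of the genes whose level differed. They are the RefSeq sequences on GRCm38.p6, 250 bases before and 50 bases after the transcription start, written 5′ to 3′ along the gene. Fos lies at chr12:85473640-85473939 on the plus strand, Fosb at chr7:19309996-19310295 on the minus strand, Dusp1 at chr17:26508423-26508722 on the minus strand and Zfp36 at chr7:28379179-28379478 on the minus strand. The Zfp36 stretch falls inside the gene span given further below, chr7:28376784-28380253, so its RefSeq start is not the outer end of that span. Capitals mark the matches to the motifs described after them.
Fos: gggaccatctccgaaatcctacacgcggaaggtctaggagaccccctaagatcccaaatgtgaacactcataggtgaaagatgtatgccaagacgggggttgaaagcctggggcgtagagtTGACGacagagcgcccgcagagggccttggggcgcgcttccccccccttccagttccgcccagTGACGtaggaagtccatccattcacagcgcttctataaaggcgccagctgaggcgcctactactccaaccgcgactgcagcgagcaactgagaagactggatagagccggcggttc
Fosb: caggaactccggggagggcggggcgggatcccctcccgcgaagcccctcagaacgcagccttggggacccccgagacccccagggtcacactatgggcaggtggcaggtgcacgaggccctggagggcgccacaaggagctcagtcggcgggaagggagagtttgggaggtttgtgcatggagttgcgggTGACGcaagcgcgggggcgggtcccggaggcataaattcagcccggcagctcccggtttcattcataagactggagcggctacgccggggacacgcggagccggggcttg
Dusp1: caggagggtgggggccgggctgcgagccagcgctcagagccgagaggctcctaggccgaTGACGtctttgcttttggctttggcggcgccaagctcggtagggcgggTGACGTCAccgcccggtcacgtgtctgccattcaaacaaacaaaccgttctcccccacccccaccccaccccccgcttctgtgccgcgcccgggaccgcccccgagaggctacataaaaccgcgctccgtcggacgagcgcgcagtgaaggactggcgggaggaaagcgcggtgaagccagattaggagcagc
Zfp36: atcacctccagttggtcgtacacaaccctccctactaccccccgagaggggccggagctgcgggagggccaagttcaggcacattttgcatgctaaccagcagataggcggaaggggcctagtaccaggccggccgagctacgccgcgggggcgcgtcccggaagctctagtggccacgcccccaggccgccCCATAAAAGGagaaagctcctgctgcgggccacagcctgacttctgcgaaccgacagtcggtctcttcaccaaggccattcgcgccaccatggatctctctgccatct

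The motifs searched on both strands were the CArG box of serum response elements, the cyclic AMP response element TGACGTCA, the AP-1 sites TGAGTCA and TGACTCA, and the EGR site GCGTGGGCG. Zfp36 held a CArG box whose first base was at −58 relative to the start, and Dusp1 held a cyclic AMP response element whose first base was at −143. A CArG box occurred in 1.63% and the cyclic AMP response element in 1.79% of all 32851 promoters in the RefSeq table. No AP-1 or EGR site was found in the 8 members with a promoter in the table, and such sites occurred in 5.20% and 0.612% of all promoters. After these results were seen, the shorter core TGACG of the cyclic AMP response element was added, 2 overlapping copies of which, on opposite strands, make up the full element. It occurred in 20.8% of all promoters and in those of Fos, Fosb, Junb, Atf3, Nr4a1 and Dusp1, and Fos held it at −129 and at −66, Fosb at −60. The serum response element known for Fos lies further upstream than the window, so this search could not find it. A match of letters is a description and does not show binding.

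FPKM are scaled by gene length, so levels can be set side by side between genes. In vehicle tumours Junb (33.1 ± 2.78 FPKM, mean ± SD of 5 mouse means) and Jun (28.9 ± 3.86) were the most abundant members, followed by Atf3, Ier2 and Fos, then Zfp36 and Dusp1, and by Nr4a1, Egr1 and Fosb (1.24 ± 0.522). Ranges of the vehicle mice overlapped between all neighbours in that order. In ESK981 tumours Junb and Jun were again first, at 23.9 ± 9.96 and 23.8 ± 2.18 FPKM, and Fosb was again last, at 0.478 ± 0.188 FPKM. Fos stood after Dusp1 in the ESK981 order and before Zfp36 in the vehicle order. Neighbours in the ESK981 order overlapped except Jun with Atf3, Nr4a1 with Egr1 and Egr1 with Fosb.

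**Figure D1:**
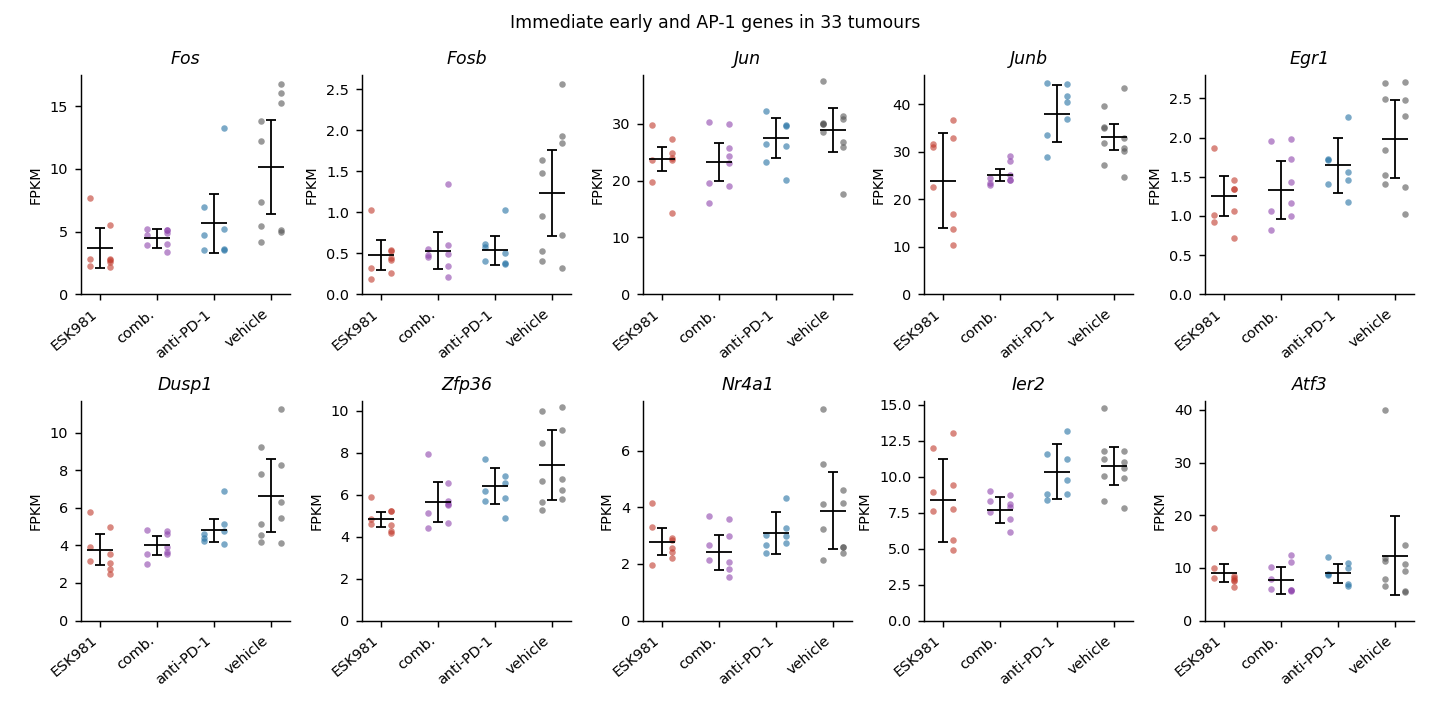
FPKM of the 10 genes in each tumour (points, left flank drawn to the left and right flank to the right) with the mean and SD of the 5 mouse means per group (bars). Fos in ESK981 tumours spans 2.14 to 7.69 FPKM and in vehicle tumours 4.17 to 16.8 FPKM, and the single high Atf3 point is vehicle 4L at 39.98 FPKM.

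ESK981 given alone was compared with vehicle first. Fos, Fosb, Dusp1 and Zfp36 fell in ESK981 tumours, by 2.44-, 1.66-, 1.64- and 1.46-fold on the log2(FPKM + 0.5) scale (n = 5 mice per group). These 4 of 10 members were called lower, where a gene is called at a limma adjusted p under 0.05 over all genes tested, and none was called higher. Over all genes, 14.4% were called, 5.43% lower and 8.95% higher. All 10 estimates were below 0, with a median log2 fold change of −0.51, against a median of 0.11 over all genes tested. Scaling by the median of ratios moved the all-gene median to within 0.01 of 0 and called 2112 genes higher and 2277 lower, in place of 1418 and 860. Relative to the median of all genes, the member median was −0.62 as deposited and −0.64 after that scaling, which called 8 members lower, Jun, Junb, Egr1 and Ier2 being added. Without vehicle mouse 2, Fos and Dusp1 were the 2 members called. The direction of the 10 members was known when they were chosen, so it is not independent evidence.

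Fos and Fosb encode the FOS subunits of AP-1, which bind DNA mainly as partners of a JUN protein. Fos (chr12:85473890-85477273, plus strand) ranged from 2.14 to 7.69 FPKM with a median of 2.76 in ESK981 tumours, and from 4.17 to 16.8 with a median of 9.78 in vehicle tumours. It lay between 3.39 and 5.20 FPKM (median 4.78) in combination tumours and between 3.54 and 13.2 (median 4.76) in anti-PD-1 tumours. Of the 8 ESK981 tumours, 6 were below the lowest vehicle tumour, and all 8 were below the vehicle median, while the ranges overlapped through ESK981 4R and 5L. The mouse means averaged 3.67 ± 1.58 FPKM with ESK981, 4.45 ± 0.749 with the combination, 5.65 ± 2.34 with anti-PD-1 and 10.1 ± 3.75 with vehicle (SD, n = 5 each). The log2 fold change of ESK981 against vehicle was −1.29 ± 0.27 (SE, limma adjusted p = 0.00696). Fos was called lower in each of the 33 alternative fits tried, with an adjusted p between 0.00340 and 0.0252.

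Vehicle tumours differed among themselves in Fos more than any treated group did in FPKM. Vehicle 3L, 3R, 4R and 1L had 4.17, 5.00, 5.13 and 5.41 FPKM, whereas 4L, 2L, 2R, 1R and 5R had 12.2, 13.8, 15.3, 16.1 and 16.8 FPKM, and 5L had 7.35. Mice 1 and 4 each held a tumour of both kinds. On the log2 scale the SD of a single tumour within a mouse was 0.58 over the 13 mice with a tumour on each flank. The SD of mouse means within a group was 0.47. Those means are already averaged over both flanks where present, so the 2 SDs cannot be ranked. The median absolute flank difference was only 0.14, so a minority of mice held the wide ones. The widest flank difference, 1.49, was in vehicle mouse 1. Anti-PD-1 mouse 4 (1.38) and vehicle mouse 5 (1.14), which hold the tumours with the least fragments, were also wide. So were ESK981 mouse 5 (7.69 FPKM in 5L against 2.81 in 5R) and vehicle mouse 4 (12.2 in 4L against 5.13 in 4R). Neither of these mice, nor vehicle mouse 1, holds the tumours with the least fragments, so wide differences were not confined to low depth.

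Fosb (chr7:19302696-19310051, minus strand), the least abundant member, ranged from 0.189 to 1.02 FPKM (median 0.432) in ESK981 tumours and from 0.318 to 2.56 (median 1.21) in vehicle tumours. It ranged from 0.207 to 1.35 (median 0.485) in combination tumours and from 0.365 to 1.03 (median 0.502) in anti-PD-1 tumours. All 8 ESK981 tumours were below the vehicle median, although vehicle 3R, at the vehicle minimum, was lower than 5 of them. Mouse means were 0.478 ± 0.188 with ESK981, 0.531 ± 0.227 with the combination, 0.535 ± 0.181 with anti-PD-1 and 1.24 ± 0.522 with vehicle. Against vehicle, ESK981 gave a log2 fold change of −0.73 ± 0.21 (adjusted p = 0.0277). Its call was lost (adjusted p 0.0553 to 0.0783, log2 fold change −0.93 to −0.49) without a low-value filter, with right flank tumours only, with array weights, and without vehicle mouse 2, vehicle mouse 5, ESK981 mouse 1 or ESK981 mouse 3. Fosb was not tested under the stricter filter of 1 FPKM in 10 tumours.

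Jun and Junb, whose products can bind as pairs of JUN proteins or with FOS and ATF proteins, did not pass the test. Jun (chr4:95049034-95052222, minus strand) ranged from 14.3 to 29.8 FPKM (median 23.8) in ESK981 tumours, against 17.7 to 37.5 (median 29.97) in vehicle tumours. It ranged from 16.03 to 30.3 (median 23.7) with the combination and from 20.1 to 32.2 (median 26.4) with anti-PD-1. Groups overlapped widely, and the log2 fold change of ESK981 against vehicle was −0.28 ± 0.13 (adjusted p = 0.162). Junb (chr8:84974484-84978718, minus strand), often an antagonist of JUN in growth control, ranged from 10.3 to 36.8 FPKM (median 26.9) in ESK981 tumours, against 24.6 to 43.5 (median 32.4) in vehicle tumours. ESK981 tumours were split, since 2R, 1R, 5R and 1L had 10.3, 13.8, 17.0 and 22.7 FPKM, below every vehicle tumour, and the other 4 had 31.1 to 36.8 FPKM, within the vehicle range. The log2 fold change was −0.58 ± 0.22 (adjusted p = 0.0777), and Junb was called without ESK981 mouse 3 (−0.74) or mouse 4 (−0.73). Fragments of Jun and of Junb are uncertain in the 232 exon bases shared with Junos and the 173 shared with Prdx2 on the opposite strand, as are those of Zfp36 in 125 bases shared with Gm44710, because the use of strand in counting is not given in the sources used here.

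Atf3 (chr1:191170296-191218039, minus strand), a stress-induced bZIP repressor that can join AP-1, ranged from 6.45 to 17.5 FPKM (median 8.10) in ESK981 tumours, against 5.39 to 39.98 (median 10.1) in vehicle tumours. It ranged from 5.63 to 12.4 (median 6.90) in combination tumours and from 6.52 to 12.0 (median 8.82) in anti-PD-1 tumours. A single tumour, vehicle 4L at 39.98 FPKM, stood above the rest, and the other flank of the same mouse had 10.8. The log2 fold change of ESK981 against vehicle was −0.23 ± 0.24 (adjusted p = 0.534), and 0.01 without vehicle mouse 4.

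Egr1, on chromosome 18, encodes a zinc finger factor induced through serum response elements, and Nr4a1, on chromosome 15, an orphan nuclear receptor also known as NUR77. Egr1 ranged from 0.715 to 1.87 FPKM (median 1.20) in ESK981 tumours, against 1.02 to 2.70 (median 2.06) in vehicle tumours, and all 8 ESK981 tumours were below the vehicle median. It ranged from 0.818 to 1.99 (median 1.29) with the combination and from 1.18 to 2.26 (median 1.56) with anti-PD-1. The log2 fold change of ESK981 against vehicle was −0.48 ± 0.17 and missed the threshold (adjusted p = 0.0573), though 8 of the 33 alternatives called it, among them those without vehicle mouse 3 (−0.61), combination mouse 3 or combination mouse 5 (both −0.48). Nr4a1 ranged from 1.96 to 4.17 FPKM (median 2.71) in ESK981 tumours, against 2.14 to 7.47 (median 3.67) in vehicle tumours, with a log2 fold change of −0.35 ± 0.20 (adjusted p = 0.225). Its values were 1.52 to 3.69 (median 2.40) with the combination and 2.39 to 4.33 (median 3.00) with anti-PD-1.

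Ier2 (chr8:84661331-84662852, minus strand), a short-lived nuclear protein, ranged from 4.92 to 13.01 FPKM (median 8.37) in ESK981 tumours, against 7.83 to 14.8 (median 10.8) in vehicle tumours. It ranged from 6.14 to 9.04 (median 7.997) with the combination and from 8.39 to 13.2 (median 9.78) with anti-PD-1. The tumours 2R and 1R, lowest in Junb, were also the lowest ESK981 tumours in Ier2, at 4.92 and 5.63 FPKM, and 3R was the highest in both genes. The log2 fold change of ESK981 against vehicle was −0.39 ± 0.18 (adjusted p = 0.148), and without ESK981 mouse 3 it was −0.54 (adjusted p = 0.0354).

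Dusp1 and Zfp36, the feedback members, had the most even values within the ESK981 group of the 4 genes called. Dusp1 (chromosome 17), a phosphatase that inactivates p38, JNK and ERK, ranged from 2.49 to 5.76 FPKM (median 3.38) in ESK981 tumours, against 4.13 to 11.3 (median 5.90) in vehicle tumours. It ranged from 3.01 to 4.80 (median 3.77) with the combination and from 4.08 to 6.91 (median 4.63) with anti-PD-1. Of the 8 ESK981 tumours 6, and of the 8 combination tumours 5, lay below the lowest vehicle tumour. Mouse means were 3.78 ± 0.832 with ESK981, 4.02 ± 0.506 with the combination, 4.80 ± 0.609 with anti-PD-1 and 6.64 ± 1.95 with vehicle. Against vehicle, ESK981 gave a log2 fold change of −0.71 ± 0.16 (adjusted p = 0.0102), and 32 of the 33 alternatives called it.

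Zfp36 (chr7:28376784-28380253, minus strand) encodes tristetraprolin, which binds AU-rich elements and speeds the decay of cytokine messenger RNAs. It ranged from 4.18 to 5.87 FPKM (median 4.72) in ESK981 tumours, against 5.27 to 10.2 (median 6.71) in vehicle tumours. It ranged from 4.40 to 7.94 (median 5.55) with the combination and from 4.89 to 7.70 (median 6.17) with anti-PD-1. Of the 8 ESK981 tumours, 7 were below the lowest vehicle tumour. Mouse means did not overlap between the groups, at 4.26 to 5.21 FPKM with ESK981 against 5.73 to 10.1 with vehicle, which held for 4.05% of all genes in this direction. The log2 fold change was −0.54 ± 0.14 (adjusted p = 0.0171), and it was called in 31 of the 33 alternatives, all but the flow cell term (adjusted p = 0.362) and the fit without vehicle mouse 2 (adjusted p = 0.0570).

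**Figure D2:**
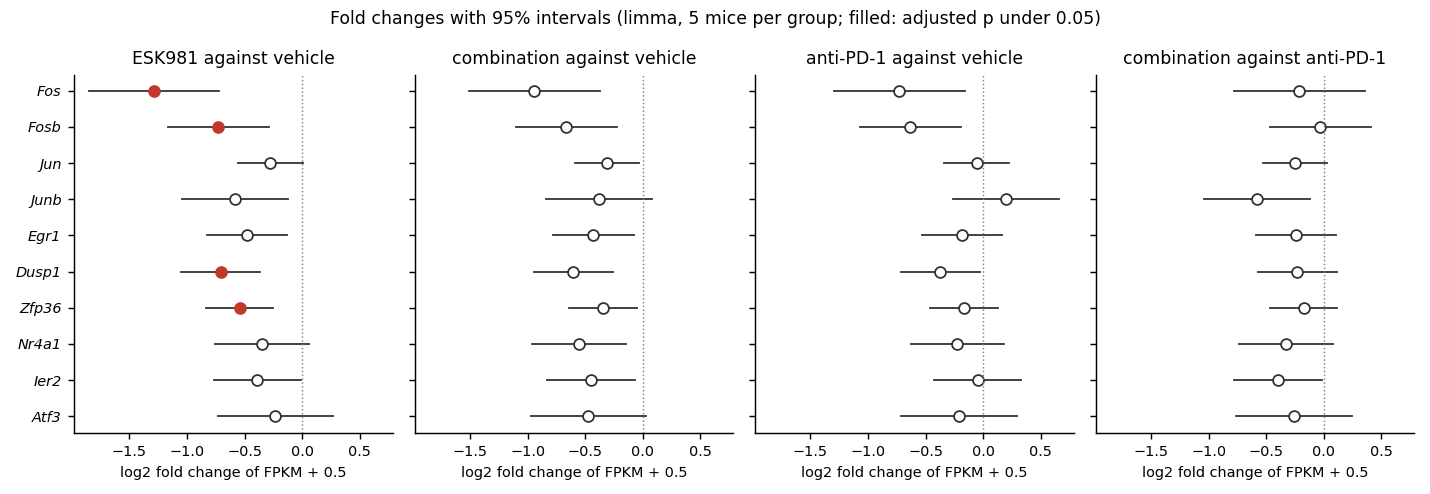
Log2 fold change of each gene (points) with its 95% interval (lines) in 4 comparisons, filled red where the limma adjusted p was under 0.05. Fos, Fosb, Dusp1 and Zfp36 are filled against vehicle in ESK981 tumours, and no gene is filled in the other 3 panels.

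Flow cell and treatment are nearly confounded in every comparison with vehicle. Vehicle 5R, the single vehicle tumour on the flow cell of the treated tumours, had 16.8 FPKM of Fos and 1.84 of Fosb, above all 23 treated tumours in both genes. Its 6.33 FPKM of Dusp1 was above 22 of the 23, and its 43.5 of Junb above 21. Its Zfp36 was above 15 of the treated tumours, its Egr1 above 11, its Nr4a1 above 9, its Ier2 above 7, its Jun above 2 and its Atf3 above 1. Adding a term for the flow cell, whose estimate depends on that tumour, called Fos (log2 fold change −2.23, adjusted p = 0.00565) and Fosb (−1.24, adjusted p = 0.0442) in ESK981 against vehicle. Dusp1 (−0.78, adjusted p = 0.0976) was not called there, and Jun, Nr4a1, Ier2 and Atf3 were above 0. In that fit the median over all genes was 0.60.

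The same tumour had the least fragments and the most mitochondrially encoded RNA, and anti-PD-1 4R came next in both respects. Fos was 16.8 FPKM in vehicle 5R against 7.35 in 5L of the same mouse, and 13.2 in anti-PD-1 4R against 4.76 in 4L. Junb was likewise higher, at 43.5 against 31.8 and at 41.7 against 33.6 FPKM, while Jun was lower, at 17.7 against 29.99 and at 20.1 against 26.4. Fosb and Dusp1 were also higher in both tumours, and Egr1 and Atf3 lower. Directions differed for Nr4a1 (2.61 against 5.53 in the vehicle mouse, 3.29 against 2.66 in the anti-PD-1 mouse). They also differed for Ier2 (7.83 against 11.8, 8.82 against 8.39) and Zfp36 (5.79 against 5.66, 4.89 against 6.17). The summed FPKM of the mitochondrially encoded protein genes ran from 3991 to 8369 with ESK981, 5022 to 19040 with the combination, 7233 to 52728 with anti-PD-1 and 5683 to 90856 with vehicle. The summed FPKM of Gm23935, Gm26917 and Gm42418, genes with sequence like ribosomal RNA, ran from 15043 to 86387 with ESK981, 19591 to 500377 with the combination, 36276 to 179159 with anti-PD-1 and 127087 to 240279 with vehicle. ESK981 and vehicle tumours did not overlap in that sum, and combination 5R, at 500377, stood above every other tumour. The part of both sums in the results was not tested. Without vehicle 5R, Fos stood at −1.17 (adjusted p = 0.00911) and 5 members were called in ESK981 against vehicle, the fifth being Egr1.

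**Figure D3:**
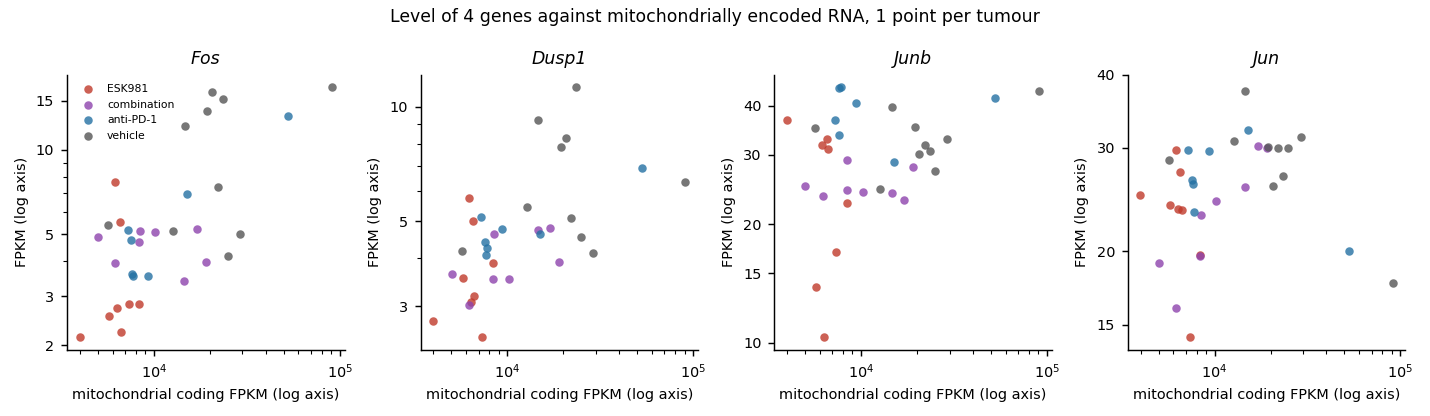
FPKM of Fos, Dusp1, Junb and Jun against the summed FPKM of mitochondrially encoded protein genes, both axes logarithmic, each point a tumour coloured by group. The points furthest right are vehicle 5R (90856) and anti-PD-1 4R (52728), which lie high in Fos and Junb and low in Jun.

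The combination against vehicle addresses both agents together, since the vehicle mice received neither, and flow cell and treatment are nearly confounded in it. Limma called 0 of 10 members, against 0.606% of all genes, and 8 had an unadjusted p under 0.05. All 10 estimates were below 0, with a median of −0.46, against 0.03 over all genes. Dusp1 stood at −0.60 ± 0.16 (adjusted p = 0.103), Fos at −0.94 ± 0.27 (0.131), Fosb at −0.67 ± 0.21 (0.174) and Nr4a1 at −0.55 ± 0.20 (0.237). Junb and Ier2 were the members whose mouse means did not overlap, at 23.6 to 26.8 FPKM with the combination against 30.1 to 37.6 with vehicle for Junb, and at 6.14 to 8.57 against 9.46 to 12.9 for Ier2. Of all genes, 1.42% had such a separation downwards. The limma estimates of these genes, −0.38 ± 0.22 for Junb (adjusted p = 0.495) and −0.45 ± 0.18 for Ier2 (0.319), share the spread of all 4 groups, among which the ESK981 mice were far apart. The other 4 members, Jun, Egr1, Zfp36 and Atf3, lay between −0.47 and −0.31. ESK981 and the combination share the vehicle mice, so the 2 sets of estimates are not independent. Without vehicle mouse 3, which had the lowest vehicle Fos, limma called Fos (−1.17), Fosb (−0.89) and Dusp1 (−0.73) lower in the combination.

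Anti-PD-1 against vehicle gave 0 of 10 members called by limma, against 0.783% of all genes, and 3 with an unadjusted p under 0.05. Those were Fos at −0.73 ± 0.27 (adjusted p = 0.230), Fosb at −0.63 ± 0.21 (0.161) and Dusp1 at −0.37 ± 0.16 (0.328). The member median was −0.20, against 0.13 over all genes. Junb was the only member above 0, at 0.20 ± 0.22 (0.714), and 6 of the 7 anti-PD-1 tumours exceeded its vehicle median. In Fos, 6 of the 7 were below the vehicle median, the exception being 4R. Without vehicle mouse 3, limma called Fosb lower (−0.85).

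Against anti-PD-1 alone, the combination addresses ESK981 in mice that all received the antibody, with every tumour on the same flow cell. The lanes differed, since all 7 anti-PD-1 tumours were on lane 6 and the combination tumours on lanes 4 and 5, so lane and group cannot be told apart here. Limma called 0 of 10 members, and 2 had an unadjusted p under 0.05. It also called 0 of the 15846 genes, a share of 0%, so the members' count can be read against no background of calls. Without anti-PD-1 mouse 5 it called 59 genes, no member among them. All 10 estimates were below 0, with a median of −0.25, against −0.09 over all genes. Scaling by the median of ratios or by the protein-coding sum, which moved the all-gene median to −0.0028 and −0.016, left 9 of the 10 below 0, and Fosb was then at 0.02. Junb stood at −0.58 ± 0.22 (adjusted p = 0.689) and ran from 23.0 to 29.1 FPKM (median 24.3) in combination tumours, against 28.8 to 44.6 (median 40.5) in anti-PD-1 tumours. Ier2 stood at −0.40 ± 0.18 (adjusted p = 0.807). Mouse means of Junb and of Ier2 did not overlap between the groups, which held for 0.713% of all genes in this direction. The Fos interval ran from −0.78 to 0.35 and the Fosb interval from −0.47 to 0.41, both wide enough to hold a fall as well as no difference.

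Combination against ESK981, which addresses anti-PD-1 in mice given ESK981, had 0 of 10 members called by limma and 0 with an unadjusted p under 0.05, and 0% of all genes were called. Estimates ran from −0.24 to 0.35, with Fos at 0.35 ± 0.27 (95% interval −0.22 to 0.91) and Dusp1 at 0.11 ± 0.16. The interaction, that is the difference made by ESK981 beside anti-PD-1 less the difference it made alone, was called for 0 of 10 members, against 0.0252% of all genes. The vehicle mice enter the interaction, so the flow cell cannot be told apart from treatment there either. Fos, at 1.07 ± 0.39 (adjusted p = 0.175), and Fosb, at 0.70 ± 0.30 (0.230), were the 2 members with an unadjusted p under 0.05. Dusp1 stood at 0.48 ± 0.23 (0.279), Zfp36 at 0.37 ± 0.20 (0.317), and the other 6 members between −0.03 and 0.24. It was thus not shown that the ESK981 difference of Fos was smaller with anti-PD-1.

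Members did not all move together from mouse to mouse. After each gene was centred on its group mean, the Pearson correlation over 20 mice had a median of 0.17 across the 45 pairs of members and was above 0 in 33. Fos went with Fosb (r = 0.84) and Dusp1 (0.71), Junb with Ier2 (0.82), and Egr1 with Nr4a1 (0.78), while Jun went with Zfp36 (0.61). These values describe tumours that share depth and tissue make-up.

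Related lists were then read from the same fit, ESK981 against vehicle. In their counts, genes that fell or rose are those called lower or higher. Over all genes, 5.43% were called lower and 8.95% higher. Flow cell and treatment are nearly confounded for every list in this comparison. Of 14 other AP-1 and bZIP subunits, 5 fell and 2 rose, with a median of −0.26. Batf2, a bZIP factor induced by interferon, fell to 0.459 ± 0.243 FPKM in ESK981 tumours, against 2.67 ± 1.14 in vehicle tumours (log2 fold change −1.62 ± 0.32, adjusted p = 0.00415). Jund, the JUN subunit present in most resting cells, fell to 67.9 ± 19.0 FPKM, against 112 ± 14.5 with vehicle (−0.75 ± 0.16, 0.00727). Atf2, a partner of JUN phosphorylated by stress kinases, rose by 0.62 ± 0.16 on the log2 scale (0.0168). With a flow cell term only 1 of the 14 was called lower, and Batf2 was at 0.36.

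Of 16 other immediate early transcription factors tested, 3 were called lower and none higher, against 5.43% and 8.95% of all genes. Estimates were below 0 for 11 of the 16, with a median of −0.09. Cebpb, a factor of inflammation and differentiation, fell to 7.77 ± 2.88 FPKM in ESK981 tumours, against 20.504 ± 3.92 in vehicle tumours (−1.36 ± 0.22, adjusted p = 0.00139). The others were Klf2 (−0.61 ± 0.15, 0.0159) and Egr2 (−0.63 ± 0.18, 0.0278). Of 29 other immediate early effectors, 7 fell and none rose, with a median of −0.21. The NF-κB inhibitor Nfkbia fell to 13.1 ± 1.70 FPKM, against 24.0 ± 5.36 with vehicle (−0.84 ± 0.17, 0.00463). Ier3 (−0.82 ± 0.19, 0.0114), the cytokine signalling inhibitor Socs3 (−1.09 ± 0.28, 0.0164) and the kinase Pim1 (−0.87 ± 0.24, 0.0223) fell as well.

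No gene of the ERK and kinase lists was called lower in the fit as deposited. The 11 genes of ERK output and feedback tested were Dusp2, Dusp4, Dusp5, Dusp6, Spry4, Spred1, Spred2, Spred3, Etv4, Etv5 and Phlda1. Limma called 0 of them, and 3 had an unadjusted p under 0.05, with a median of 0.09 (2 called lower after scaling by the median of ratios). Those 3 were Dusp2 (−0.69), Dusp5 (−0.49) and Spry4 (0.33), named after their values were seen. Of 20 upstream kinases none fell and 5 rose, namely Braf, Mapk8, Map2k4, Rps6ka5 and Rps6ka3, the last named after its value was seen. Braf, a kinase at the top of the ERK cascade, rose to 14.03 ± 1.14 FPKM in ESK981 tumours, against 8.17 ± 1.34 in vehicle tumours (0.76 ± 0.16, adjusted p = 0.00669). Scaling by the median of ratios called 5 of the 20 higher and 5 lower, so the balance of directions in that list rests on the scaling. Of the 10 upstream transcription factors, limma called 0 and 3 had an unadjusted p under 0.05, and after scaling by the median of ratios it called 4 lower and 1 higher. Counts under that scaling stand beside 2277 lower and 2112 higher of all 15846 genes, in place of 860 and 1418 as deposited.

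Of 14 genes listed as AP-1 targets, 2 fell and 1 rose, with a median of −0.57. Hmox1, the haem oxygenase, fell to 8.27 ± 2.33 FPKM in ESK981 tumours, against 20.3 ± 5.98 in vehicle tumours (−1.21 ± 0.27, adjusted p = 0.00810). The cytokine Lif fell by 0.66 ± 0.17 (0.0181). Spp1, which encodes osteopontin, rose to 113 ± 17.3 FPKM, against 56.7 ± 6.76 with vehicle (1.01 ± 0.22, 0.00755). Of 8 known targets of tristetraprolin tested, 3 fell, namely Ccl3 (−1.68 ± 0.33, 0.00418), Il1b (−1.38 ± 0.32, 0.00981) and Ier3, and none rose.

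**Figure D4:**
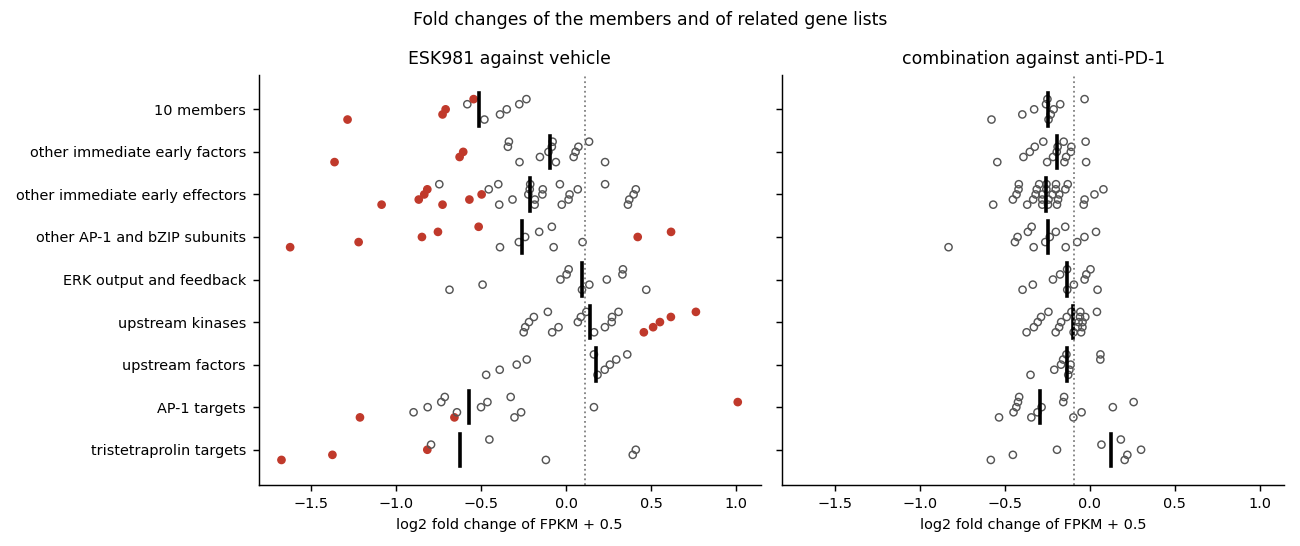
Log2 fold changes of single genes (circles, filled red where the limma adjusted p was under 0.05) in the 10 genes and in related lists, with the median of each list (bar) and of all genes tested (dotted line), for ESK981 against vehicle and for the combination against anti-PD-1. The median of the 10 genes is −0.51 in the first panel, where the dotted line is at 0.11, and −0.25 in the second, where it is at −0.09.

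In the combination against vehicle, in anti-PD-1 against vehicle and in the combination against anti-PD-1, limma called 0 genes in each of these 8 lists, with 0 to 9 genes a list at an unadjusted p under 0.05. In the last of these comparisons, 13 of 14 AP-1 and bZIP subunits, 16 of 16 other immediate early factors and 27 of 29 effectors were below 0, with medians of −0.25, −0.19 and −0.26. The upstream kinases, at 19 of 20 below 0 with a median of −0.10, lay at the all-gene median of −0.09. Below 0 were also 12 of 14 AP-1 targets (median −0.30), 9 of 11 ERK output genes (−0.13) and 8 of 10 upstream transcription factors (−0.13). Of the tristetraprolin targets, 3 of 8 were below 0, with a median of 0.12 but a mean of −0.03, so the list had no clear direction.

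Markers of other cell types in the tumours moved in the ESK981 comparison with vehicle too, where flow cell and treatment are nearly confounded. Over all genes, 5.43% were called lower and 8.95% higher. Of 7 macrophage markers 3 were called lower, of 5 T cell markers 4 and of 5 fibroblast markers 3, and of 3 neutrophil markers tested 1. Called higher were 2 of 4 endothelial markers tested, 1 of 2 epithelial, 1 of 3 smooth muscle and pericyte, 1 of 3 red blood cell and 1 of 1 adipocyte markers. In the combination against anti-PD-1, no macrophage marker was called and all 7 were below 0, with a median of −0.57. The macrophage sum ran from 58.2 to 116 FPKM with ESK981, 45.4 to 204 with the combination, 118 to 228 with anti-PD-1 and 92.4 to 243 with vehicle. The fibroblast sum ran from 22.3 to 47.4 FPKM with ESK981, 27.8 to 199 with the combination, 49.5 to 112 with anti-PD-1 and 44.9 to 495 with vehicle. T cell sums were low in every group, at 0.720 to 2.52 with ESK981, 0.713 to 8.78 with the combination, 0.554 to 5.99 with anti-PD-1 and 0.357 to 8.66 with vehicle. None of these markers was at 0 in every tumour. The part of these cells in the member results was not tested.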

How the data were processed

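Values are FPKM per gene, as deposited by the authors for 33 tumours of 20 mice. Per the submitters' processing notes, reads were processed with STAR and featureCounts on mm10. The sources used here name no versions, gene annotation or strand setting. Gene coordinates are those of GENCODE M21 on GRCm38, given only where the gene identifier with its version matched. Low FPKM values multiplied by exon length were whole multiples of 1 fragment within 0.01, which gave the fragments per tumour. Being scaled values, FPKM were tested on a log scale and not as counts.

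Values of log2(FPKM + 0.5) were averaged per mouse and fitted with the 4 groups in limma 3.58.1 (R 4.3.3) with a mean-variance trend, 16 residual degrees of freedom and Benjamini-Hochberg adjustment over 15846 genes. Fold changes on this scale understate the change of low genes. All tests were two-sided, and a mouse, as given by its ear tag, was the replicate. The fit was tested on simulated data. The 10 genes and all lists were chosen with earlier results of these data known. Named list genes are up to 4 called genes with the smallest adjusted p per list. A few genes that these rules pick are not reported here. Alternatives were 13 settings and each of 20 mice left out in turn.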

Additional observations from a re-analysis of the deposited data

How the results depend on the processing

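The cause of the following differences was not tested. For ESK981 against vehicle, 4 members were called as reported, 8 after median-of-ratios scaling, 8 with an equal protein-coding sum, 2 with a flow cell term, and 2 to 5 with a mouse left out, the lowest without vehicle mouse 2, when Fos and Dusp1 were called. Array weights called 4, with Jun in place of Fosb. Of all 15846 genes, median-of-ratios scaling called 4389 (2277 lower) and the equal protein-coding sum 4466 (1592 lower). The flow cell term called 5786 (232 lower), array weights 6015 (2302 lower) and the fit without vehicle mouse 2 called 1054 (430 lower). For the combination against vehicle, 0 were called as reported, 1 after median-of-ratios scaling (Dusp1), 1 with the flow cell term (Fos), 2 with array weights (Dusp1 and Zfp36) and 0 to 3 with a mouse left out, the highest without vehicle mouse 3. Over all genes these 4 fits called 1066 (537 lower), 4467 (189 lower), 1675 (455 lower) and 73 (64 lower), in that order. For anti-PD-1 against vehicle, 0 were called as reported, 1 with the flow cell term (Fos), 1 with vehicle 5R, combination 5R and anti-PD-1 4R left out (Fosb), the tumours highest in the mitochondrial sum or the sum of ribosomal RNA-like genes, 2 with array weights (Fos and Fosb) and 0 to 1 with a mouse left out, Fosb being called without vehicle mouse 3. Over all genes these 4 fits called 4397 (97 lower), 1769 (287 lower), 2762 (561 lower) and 52 (28 lower), in that order. The interaction had 0 called as reported and 1 (Fos, 2.03) with the flow cell term, which called 4033 of all 15846 genes, 92 of them higher. Combination against anti-PD-1 and combination against ESK981 had 0 called in all 33 alternatives.

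Some log2 fold changes reversed. With the flow cell term the median over all genes was 0.60 for ESK981, 0.56 for the combination and 0.60 for anti-PD-1, each against vehicle, so signs there are read against those medians. ESK981 against vehicle gave Jun 0.37, Nr4a1 0.15, Ier2 0.083 and Atf3 0.60. Combination against vehicle gave Jun 0.37, Egr1 0.036, Nr4a1 0.0060, Ier2 0.0083 and Atf3 0.41. Anti-PD-1 against vehicle gave Jun 0.58, Junb −0.19, Egr1 0.23, Zfp36 0.035, Nr4a1 0.27, Ier2 0.37 and Atf3 0.62. Right flank tumours alone gave Jun 0.0035, Nr4a1 0.051 and Ier2 0.064 for anti-PD-1 against vehicle, and array weights gave Ier2 0.013. For the combination against anti-PD-1, Fosb was 0.0169 and 0.017 after the 2 scalings, 0.015 without the 3 tumours named above and 0.072 with array weights. Array weights also gave Fosb −0.019 and Dusp1 −0.0095 for the combination against ESK981. With a mouse left out, Atf3 ran from −0.39 to 0.014 in ESK981 against vehicle, and in anti-PD-1 against vehicle Atf3 ran from −0.37 to 0.035, Jun from −0.13 to 0.0056 and Ier2 from −0.14 to 0.016. Fosb ran from −0.14 to 0.058 in the combination against anti-PD-1 and from −0.045 to 0.14 in the combination against ESK981.

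Over all genes, ESK981 against vehicle called 2278 genes as reported, 1412 with no filter, 852 with right flank tumours, 1390 without ESK981 1R and 2R, 4389 after median-of-ratios scaling, 4466 with an equal protein-coding sum, 4796 without the 3 tumours, 5786 with the flow cell term, 6015 with array weights and 1054 to 3782 with a mouse left out. Combination against vehicle called 96 as reported and 12 (right flank) to 4467 (flow cell term) otherwise, 1066 and 1542 after the scalings. Anti-PD-1 against vehicle called 124 as reported and 23 (right flank) to 4397 (flow cell term) otherwise, 368 and 805 after the scalings. Combination against anti-PD-1 called 0 as reported, 1 with no filter, 25 with array weights and 59 without anti-PD-1 mouse 5. Combination against ESK981 called 0 as reported and 41 without the 3 tumours. The interaction called 4 as reported and 0 (no filter) to 4033 (flow cell term) otherwise. No paired analysis was possible because the groups share no ear tags and the mouse numbers only name mice. Low fragment numbers limit Fosb and Egr1 most.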

Other observations

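Of the 8 protein-coding genes, members left out, whose mouse-to-mouse pattern was most like the mean of the 10 members, 7 are given here. They were chosen after centring each gene on its group mean, as a description over 20 mice. They were Cnnm4 (Pearson r = 0.85), Cyr61 (0.82), Myadm (0.79), Gadd45b (0.78), Prkab2 (0.77), Kctd9 (0.76) and Fermt2 (0.76). Cyr61, a secreted matrix protein, and Gadd45b, a stress sensor, are immediate early genes themselves and stand in the list of effectors. In ESK981 against vehicle, their log2 fold changes ran from −0.75 (Cyr61, limma adjusted p = 0.123) to 0.42 (Kctd9, 0.0639), with Cnnm4, a magnesium transporter, at −0.42 (0.0858).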
